A study of Mus musculus with 5 samples.

Results

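The genes described here are 9 chromatin remodellers and BET readers, chosen by name from 21887 mouse protein-coding genes. BAF is represented by 6 genes, the ATPases Smarca4 and Smarca2, the scaffold Smarcc1, the core subunit Smarcb1 and the ARID subunits Arid1a and Arid1b. The CHD family is represented by Chd4 and Chd7, and the BET family by Brd2. H3K27ac, a histone H3 acetylation found at promoters and enhancers in use, was profiled by ChIPmentation, in which the transposase Tn5 adds sequencing adapters to immunoprecipitated chromatin. The cells were mouse bone marrow cells sorted for CD45.2, Sca1 and Kit and against lineage markers, labelled HSC/MPP (haematopoietic stem cells and multipotent progenitors), and every library carried the genotype Mll3/4 deleted. Per the labels, 4 H3K27ac libraries and 1 input library were made. Age, the deleting Cre and the number of animals are not given in the sources used here. The deposited data are a single list of 22948 peaks without a value for any single library, so there is no replicate error, no test between samples and no comparison with cells that keep Mll3 and Mll4. Every number below describes this 1 list.

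BAF complexes, the mammalian relatives of yeast SWI/SNF, use the energy of ATP to slide and evict nucleosomes and so open promoters and enhancers. A complex carries either Smarca4 or Smarca2 as its motor, and the canonical form carries either Arid1a or Arid1b. Chd4 is the motor of NuRD, which couples remodelling to histone deacetylation, and Chd7 is a remodeller found largely at enhancers. BET proteins such as Brd2 bind acetylated histone tails through their bromodomains and help recruit the transcription machinery. Genes of all these groups are known for roles in blood stem cells and leukaemia.

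A peak was counted at a gene end when it overlapped the 1 kb on either side of either end of the gene, as intragenic when its summit lay inside the gene and it was not such an end peak, and as flanking when its summit lay outside, up to 50 kb away. By these rules the 9 genes had 154 peaks, of which 11 were end peaks, 105 intragenic and 38 flanking. The strength of a peak is the authors' signal value, an enrichment ratio of H3K27ac over background, and percentiles of end peaks are among the 7929 protein-coding genes with a peak at an end. Across those 7929 genes the strongest end peak had a median signal value of 4.71 (interquartile range 3.52 to 6.55) and a median width of 1109 bp (685 to 1781 bp).

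Of the 9 genes, 8 had a peak at an end, against 36.2% of all protein-coding genes. The exception was Smarcb1. With an authors' −log10 q of at least 5, 5 of the 9 had one, against 24.0% of all genes, since the end peaks of Smarcc1, Arid1a and Chd7 fell under that limit.

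The sequences just around the annotated starts are shown for 4 genes chosen for their peaks. Smarca4 had its start between a strong peak and a weak one whose q-value was above 0.05, Arid1a had 2 annotated starts with unlike acetylation, Arid1b had the most intragenic peaks and Smarcb1 had no end peak. Each is a RefSeq window on GRCm38.p6 from 250 bases before to 50 after the start, written 5′ to 3′ in the direction of the gene. Capitals mark matches on either strand to 6 short motifs, a GC box, the cores bound by NRF1, ETS factors and YY1, an E-box and a CCAAT box. The Smarca4 window is chr9:21615919-21616218 on the plus strand, the outer Arid1a window chr4:133756720-133757019 and the inner one chr4:133753936-133754235, both on the minus strand. The Arid1b window is chr17:4994824-4995123 on the plus strand, and the Smarcb1 window chr10:75921565-75921864 on the minus strand. The Arid1b window lies wholly inside the gene, since its annotated start is past the 5′ end.
Smarca4: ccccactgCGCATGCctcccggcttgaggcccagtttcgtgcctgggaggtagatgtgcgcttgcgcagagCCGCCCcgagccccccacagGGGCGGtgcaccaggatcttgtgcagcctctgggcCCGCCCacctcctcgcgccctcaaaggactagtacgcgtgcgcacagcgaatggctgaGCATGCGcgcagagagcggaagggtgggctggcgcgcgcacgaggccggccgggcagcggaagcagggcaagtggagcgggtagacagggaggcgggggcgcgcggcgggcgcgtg
Arid1a outer start: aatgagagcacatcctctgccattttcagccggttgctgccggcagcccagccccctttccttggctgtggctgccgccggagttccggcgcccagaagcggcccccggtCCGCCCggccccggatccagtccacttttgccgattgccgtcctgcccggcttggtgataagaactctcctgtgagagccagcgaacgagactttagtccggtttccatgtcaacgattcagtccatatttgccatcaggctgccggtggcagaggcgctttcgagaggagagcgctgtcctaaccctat
Arid1a inner start: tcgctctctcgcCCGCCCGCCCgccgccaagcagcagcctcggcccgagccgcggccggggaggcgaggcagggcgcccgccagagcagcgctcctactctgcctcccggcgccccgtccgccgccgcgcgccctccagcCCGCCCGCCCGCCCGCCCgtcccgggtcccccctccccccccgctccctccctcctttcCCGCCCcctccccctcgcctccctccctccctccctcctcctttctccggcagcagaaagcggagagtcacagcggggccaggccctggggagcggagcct
Arid1b: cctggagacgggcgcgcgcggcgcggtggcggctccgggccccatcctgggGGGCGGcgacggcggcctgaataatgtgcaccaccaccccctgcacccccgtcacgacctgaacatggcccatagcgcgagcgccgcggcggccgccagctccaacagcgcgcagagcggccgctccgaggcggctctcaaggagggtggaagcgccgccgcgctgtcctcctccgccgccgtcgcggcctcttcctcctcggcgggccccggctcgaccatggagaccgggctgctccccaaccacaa
Smarcb1: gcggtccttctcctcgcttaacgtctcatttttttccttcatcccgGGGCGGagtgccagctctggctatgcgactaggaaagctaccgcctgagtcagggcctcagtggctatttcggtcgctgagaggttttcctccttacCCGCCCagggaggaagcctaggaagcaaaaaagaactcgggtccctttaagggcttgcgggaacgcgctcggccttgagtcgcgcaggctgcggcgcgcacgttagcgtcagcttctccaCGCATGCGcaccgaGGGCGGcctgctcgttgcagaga

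The Smarcb1 window, without a peak, lay within the range of the others in CG dinucleotides. It held 27 CG dinucleotides, against 33 for Smarca4, 42 for Arid1b, 36 at the inner Arid1a start and 22 at the outer one. Over the 8071 windows of genes with an end peak the median was 21, and over the other 13192 it was 6. The table gave 12 windows for 8 of the 9 genes, with 14 to 42 CG dinucleotides each. The GC box letters GGGCGG occurred in 11 of the 12 windows and in 46.2% of all 21263 protein-coding windows, or 63.5% of those of genes with an end peak. The NRF1 core letters GCATGCG occurred in 4, at Smarca4, Smarcb1, Smarcc1 and Brd2, against 4.44% of all windows and 7.15% of those of genes with an end peak. In 3 of these 4 the letters lay in the overlapping form that is the same on both strands. The ETS core letters CCGGAAG were found in 3 windows, at Smarca2, Smarcc1 and Brd2, against 11.6% of all windows and 20.5% of those of genes with an end peak. The E-box letters CACGTG were in none of the 12, against 7.84% of all. The YY1 core letters AAGATGG were in 1 window, at Brd2, against 6.24%, and the CCAAT box letters in 2 overlapping windows of Chd4, against 38.2%. These matches describe letters only.

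**Figure D1:**
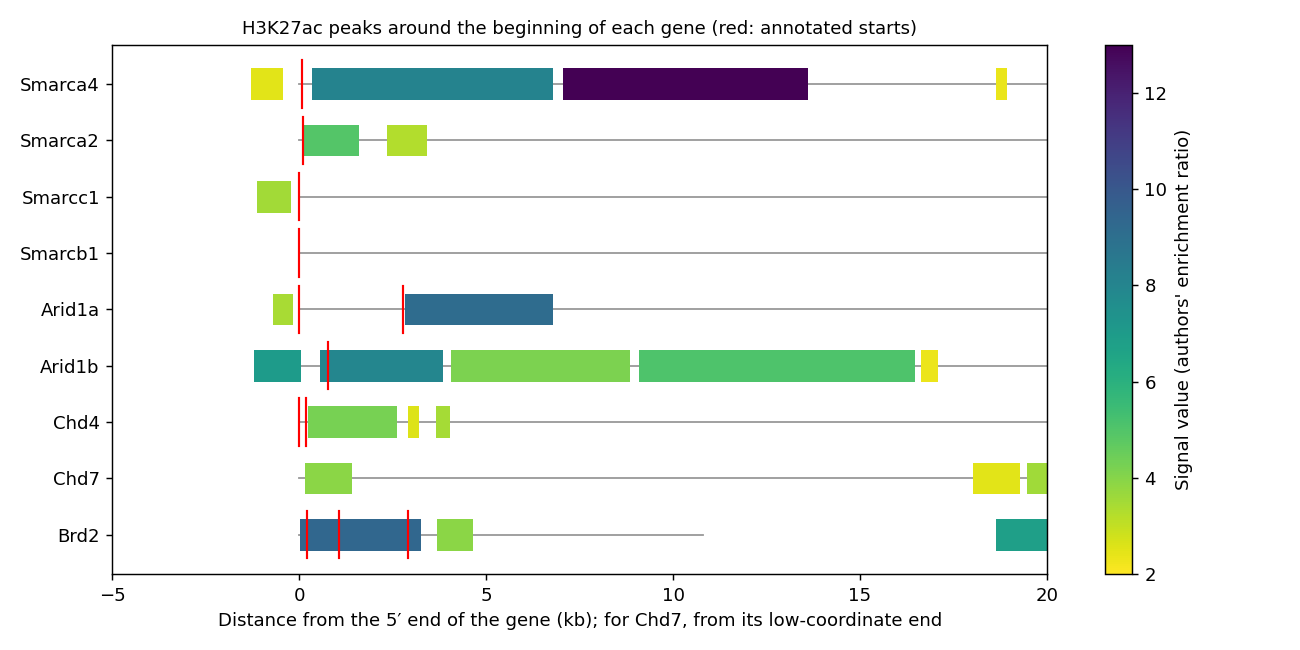
H3K27ac peaks of the 9 genes from 5 kb before to 20 kb after the 5′ end of each gene, or the low-coordinate end for Chd7 (x axis, kb). Boxes are peaks coloured by signal value, grey lines the gene and red lines the annotated starts. The start of Smarca4 lies between peaks, the starts of Brd2 lie inside 1 peak, and no box is near the start of Smarcb1.

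The motor subunits of BAF differed in how much of the beginning of the gene was acetylated. Smarca4, on the plus strand at chr9:21616106-21704230, had a peak at chr9:21616434-21622900 with a signal value of 8.08 (percentile 86.0) and a width of 6467 bp (percentile 99.2). It was followed after a short break by the strongest peak of all 9 genes, chr9:21623152-21629702, with a signal value of 13.1, a width of 6551 bp and its summit 9.02 kb into the gene. A weak peak with a signal value of 2.51 and a q-value above 0.05 (−log10 q of 1.22) lay before the gene, and with peaks at a q-value of at most 0.05 only the strong one is left. The annotated start itself was in no peak, lying 486 bp from the weak peak and 265 bp from the strong one. When peaks within 1 kb were joined, the 3 peaks became a single region of 14893 bp.

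Smarca2, the alternative motor, had 1 end peak, chr19:26605168-26606663, with a signal value of 4.96 (percentile 54.3) and a width of 1496 bp (percentile 66.6). Its edge lay 8 bp past the annotated start. The end peak was thus weaker and narrower than that of Smarca4. After a second small peak with a signal value of 3.27, the gene had no peak for 119 kb. Then 6 peaks lay between 122 and 153 kb from the 5′ end of this 173 kb gene, and the strongest of them, chr19:26746215-26750346, had a signal value of 5.11 and a width of 4132 bp. It exceeded the end peak by 0.15 in signal value.

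Among the core subunits, Smarcc1 and Smarcb1 had the fewest end and intragenic peaks of the 9 genes. Smarcc1, which holds the complex together, had a single peak at its 5′ end, chr9:110130889-110131792, with a signal value of 3.52 (percentile 25.2) and a width of 904 bp (percentile 39.3). It lay wholly before the gene, its edge 232 bp from the start, and the 108 kb gene body held no peak. Of the 501 genes of like length with an end peak, 197 had no intragenic peak, Smarcc1 included.

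Smarcb1, the subunit lost in rhabdoid tumours, had neither an end peak nor an intragenic one in its 24.8 kb. The peak nearest to its start lay 9162 bp away. The gene was nonetheless set among acetylated neighbours, with 9 flanking peaks, of which 8 overlapped the 1 kb around an end of another protein-coding gene. The strongest was at Mif, which encodes a cytokine, with a signal value of 10.1. A peak at Derl3 with a signal value of 4.37 had its summit 2.60 kb beyond the 3′ end of Smarcb1, and with a window of 2.5 kb it would be counted for Smarcb1. Others lay at Mmp11 (3.16), Chchd10 and Gm867 (2.66 and 3.30), Vpreb3 (4.23 and 3.49) and Gm5134 (4.84). Absence from the list says that no peak passed the authors' calling at a depth that is not known, not that the mark was absent.

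The ARID subunits, which steer the complex to its targets, contrasted at the first annotated start. Arid1a, on the minus strand, had at its outer start only the peak chr4:133756944-133757482, with a signal value of 3.46 (percentile 23.9) and a width of 539 bp (percentile 15.4), the weakest and narrowest strongest end peak of the 8. Its main acetylation lay at the inner annotated start. The peak chr4:133749985-133753942 began 43 bp from that start and had a signal value of 9.15 and a width of 3958 bp. By the rule on gene ends it was counted as intragenic. With any annotated start in place of the gene ends, the value of Arid1a was 9.15 rather than 3.46.

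Arid1b had 2 peaks at its 5′ end, chr17:4993077-4994347 with a signal value of 7.01 and chr17:4994860-4998141 with 7.96 (percentile 85.3). The first contained the 5′ end of the gene and lay 727 bp from the annotated start, which is inside the gene. The second began 0.563 kb into the gene, was 3282 bp wide (percentile 94.5) and contained that start. Peaks of 4794 and 7390 bp followed after short breaks, and when peaks within 1 kb were joined the beginning of the gene was a single region of 18305 bp.

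The CHD genes had end peaks below the median signal value of the genes with one. Chd4, the NuRD motor, had a peak of 2393 bp (percentile 87.6) at chr6:125096203-125098595 with a signal value of 4.25 (percentile 41.4), which began 40 bp past the nearer of 2 annotated starts. A second end peak, with a signal value of 2.94, lay at the 3′ end and also at an end of Nop2, a nucleolar RNA methyltransferase gene. Chd7 had 1 end peak, at its low-coordinate end, chr4:8690547-8691803, with a signal value of 3.92 (percentile 34.2) and a width of 1257 bp (percentile 57.1).

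Brd2, the BET reader, had the strongest end peak of the 9 genes, except with joined peaks or with a rule on summits. With peaks joined within 1, 2.5 or 5 kb, the end peak of Smarca4 had a signal value of 13.1, against 9.37 for Brd2. The Brd2 end peak was chr17:34119556-34122806, with a signal value of 9.37 (percentile 91.9), a −log10 q of 31.3 and a width of 3251 bp (percentile 94.4). All 3 annotated starts of Brd2 lay inside it. It also overlapped the 1 kb around an end of H2-DMa, a gene of MHC class II antigen loading next to Brd2, so that the genes share this peak by the rule used. Its summit was 2.66 kb from the outer end of Brd2, and a rule that needs the summit within 1 kb of an end would leave Brd2 without an end peak. Peaks covered 38.9% of this 10.8 kb gene, against a median of 4.88% for genes with an end peak.

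By class, the median of the strongest end peak was 4.96 for the 5 BAF genes with one, 4.08 for the 2 CHD genes and 9.37 for Brd2 alone. Values within BAF ran from 3.46 to 8.08, a range that included both CHD values. Median widths were 1496 bp for BAF, 1825 bp for CHD and 3251 bp for Brd2. The order of BAF and CHD by width turned with the processing. BAF was wider with peaks within 1 kb joined (3315 against 2531.5 bp) and for the peaks past a −log10 q of 5 or a signal value of 4 (3282 against 2393 bp), and with a window of 2.5 kb both were 1825 bp. With 1 to 5 genes in each class these are descriptions of single loci. The class median of BAF was 7.96 with any annotated start, where Arid1a took its inner start, and 7.96 for the peaks past a −log10 q of 5, where Smarcc1 and Arid1a dropped out.

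**Figure D2:**
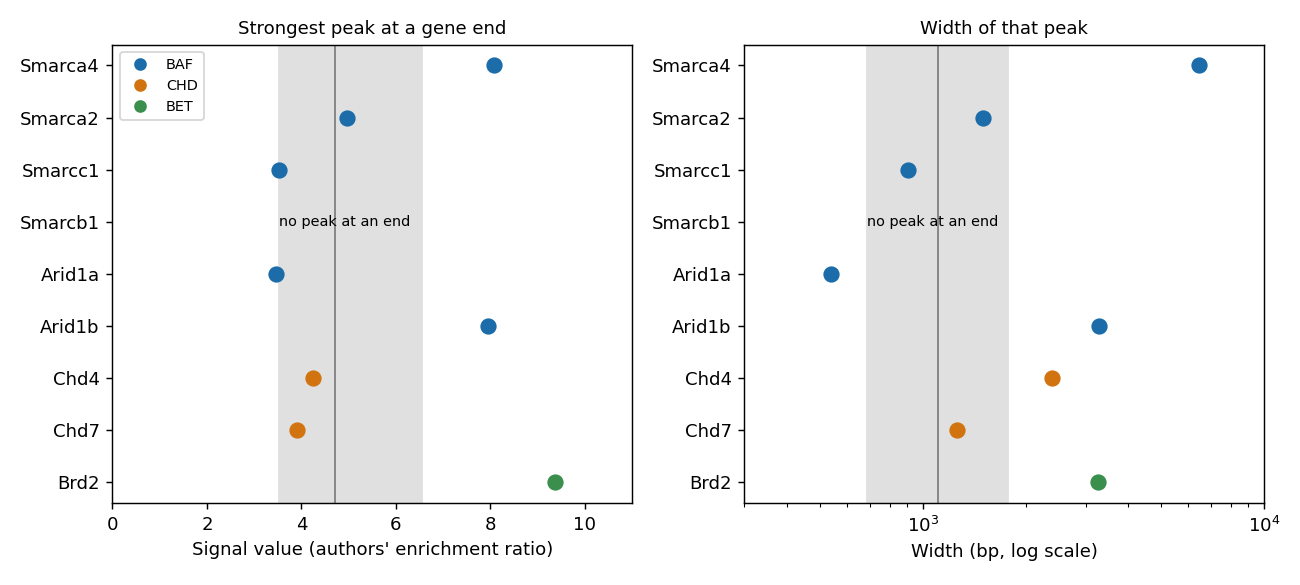
Strongest peak at an end of each gene, by signal value (left) and width in bp on a log axis (right), coloured by class. The grey band and line are the interquartile range and median of all 7929 protein-coding genes with an end peak. Smarca4, Arid1b and Brd2 lie above the band in both panels, and Smarcb1 has no end peak.

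Start bases outside any peak were common among the members and across the genome. Of the 11 annotated starts of members with an end peak, 4 lay inside a peak, those of Arid1b and Brd2. Across all genes, 7957 annotated starts had a peak within 1 kb, of which 50.8% lay inside a peak, 13.5% in a gap between 2 peaks within 1 kb and 35.7% beside a peak on 1 side. Smarca4 was the only one of the gap kind among the 8 genes with an annotated start in the table, and it is not of that kind once peaks with a q-value above 0.05 are left out.

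Arid1b held more intragenic peaks than any other protein-coding gene, 68 of the 105 of the 9 genes. Its gene length made up 33.7% of their summed length and its peaks 64.8% of their intragenic peaks. The next gene in the genome was Foxp1 with 66 intragenic peaks in 597 kb, a gene named after its value was seen, against 353 kb for Arid1b. Peaks covered 101 kb of Arid1b, or 28.5% of the gene, second by covered bases to Zmiz1, also named after the fact. Among the 81 genes with an end peak and a length within 20% of that of Arid1b, the median was 4 intragenic peaks (interquartile range 1 to 12). The first rank depended on how peaks were counted. Arid1b had 33 intragenic peaks and rank 3 when peaks within 1 kb were joined (Foxp1 had 42), 13 and rank 9 with 5 kb, and 10 with rank 3 for the peaks past a −log10 q of 5.

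Most of the Arid1b peaks were modest and they were spread unevenly along the gene. Their signal values ran from 1.98 to 7.19 with a median of 3.01, against 3.27 for all peaks of the list, and their median width was 941.5 bp. A q-value above 0.05 was attached to 22 of the 68 (32.4%), against 21.2% of the list. In steps of 50 kb from the 5′ end, the gene held 9, 17, 5, 4, 10, 9 and 14 intragenic peaks. The longest stretch without a peak ran from 115 to 170 kb, a span of 54.8 kb. A signal value of at least 4 was reached by 10 peaks (14.7%), against 33.9% of the list. The strongest were chr17:5088033-5093259 (7.19, 5227 bp wide, summit 97.9 kb into the gene), chr17:5293578-5297387 (6.12, 301 kb) and chr17:5083351-5084395 (5.39, 89.3 kb). None of the 68 was as strong as the end peak of 7.96.

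Arid1a, the paralogue of Arid1b, had 9 intragenic peaks in 77.8 kb, or 11.6 per 100 kb, against 19.2 per 100 kb for Arid1b. Of the 645 genes with an end peak and a like length, 18 had more intragenic peaks than Arid1a. Apart from the peak at the inner start, the strongest was chr4:133705382-133706941, with a signal value of 5.94 and its summit 50.4 kb beyond the 5′ end. A row of 5 weaker peaks, with signal values from 2.22 to 3.03, lay between 22.4 and 27.5 kb. The ARID genes thus both held many intragenic peaks for their length, while their peaks by the rule on gene ends differed. By annotated starts the values were 9.15 for Arid1a and 7.96 for Arid1b. That Arid1a peak is also counted among its 9 intragenic peaks.

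**Figure D3:**
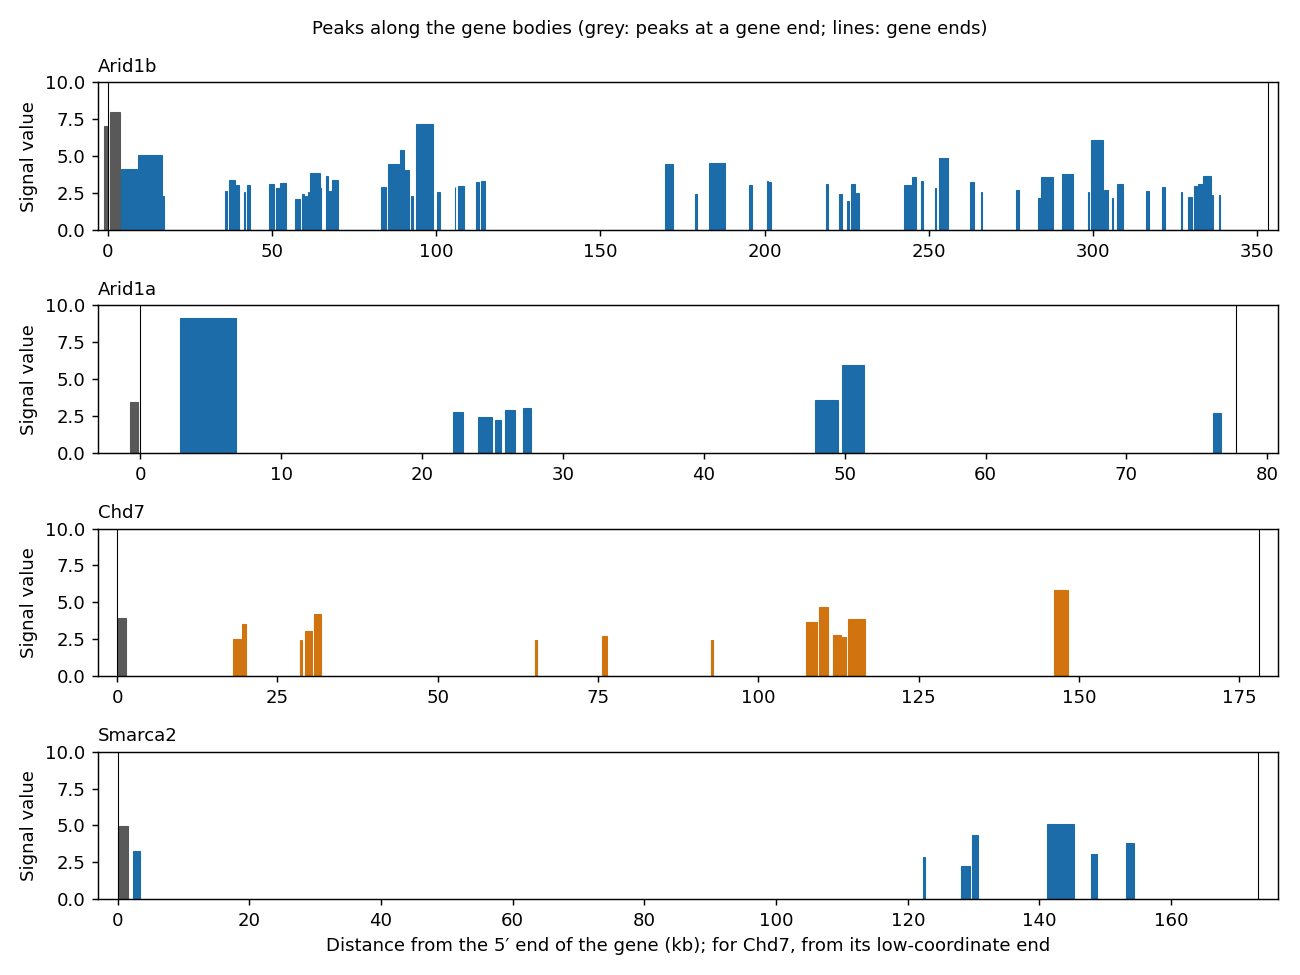
Signal value (y axis) of each peak along Arid1b, Arid1a, Chd7 and Smarca2, by distance from the 5′ end in kb (x axis; low-coordinate end for Chd7). Bar widths are peak widths to scale, grey bars are end peaks and vertical lines the gene ends. Peaks are spread along Arid1b apart from a stretch of 54.8 kb, and those of Smarca2 gather beyond 122 kb.

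Chd7 had 14 intragenic peaks in 178 kb, and 15 of the 223 genes of like length with an end peak had more. Counted from its low-coordinate end, they fell into groups at 18.9 to 31.0 kb (5 peaks) and 109 to 116 kb (5 peaks), with 3 weak single peaks between them and 1 beyond. The single peak beyond, chr4:8836566-8838744, 147 kb from that end, was the strongest of the gene with a signal value of 5.84, above the 3.92 of its end peak. Chd4, a gene of 34.6 kb, had 2 intragenic peaks, with signal values of 2.60 and 3.49, both within 4 kb of its start. The CHD genes so differed in where their peaks lay. Chd4 had its strongest at the 5′ end and Chd7 had its strongest far inside.

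Smarca4 had 4 intragenic peaks in 88.1 kb. Besides the peak of 13.1, a peak with a signal value of 4.34 and a width of 3758 bp lay 36.8 kb into the gene, and the other 2 had values of 2.38 and 2.40 with q-values above 0.05. Smarca2 had 7 intragenic peaks, and 46 of the 228 genes of like length had more. Brd2 had 1, with a signal value of 3.92, which lay close to its end peak.

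Intragenic peaks were found in 7 of the 9 genes, against 16.6% of all protein-coding genes. Chd4 and Brd2 had none left when peaks within 1 kb were joined. The same held with −log10 q of at least 5 or a signal value of at least 4. The median length of genes with an end peak was 22.3 kb, and only Brd2 among the 9 was shorter. Per 100 kb of gene, BAF genes together had 10.7 intragenic peaks, CHD genes 7.52 and Brd2 9.26, while all genes with an end peak had 1.83. Without Arid1b the BAF value was 4.24, below that of the CHD genes. In 4 of the 7 genes with both kinds of peak (Smarca4, Smarca2, Arid1a and Chd7), the strongest intragenic peak exceeded the strongest end peak. This was so in 33.0% of the 1977 genes with both kinds. In Arid1a that peak is the one at the inner start, and with annotated starts counted as ends it held for 3 of 6 genes, without Arid1a, against 29.4%. With peaks within 1 kb joined it held for 3 of 5 genes, against 33.2%, since the strong peak of Smarca4 then joined its end peak. With −log10 q of at least 5 it held for 2 of 3 genes, against 41.8%. With end peaks taken by a summit within 1 kb of an end it held for 5 of 6, Chd4 included, against 37.8%, and with peaks within 5 kb joined for 2 of 5, against 32.8%.

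**Figure D4:**
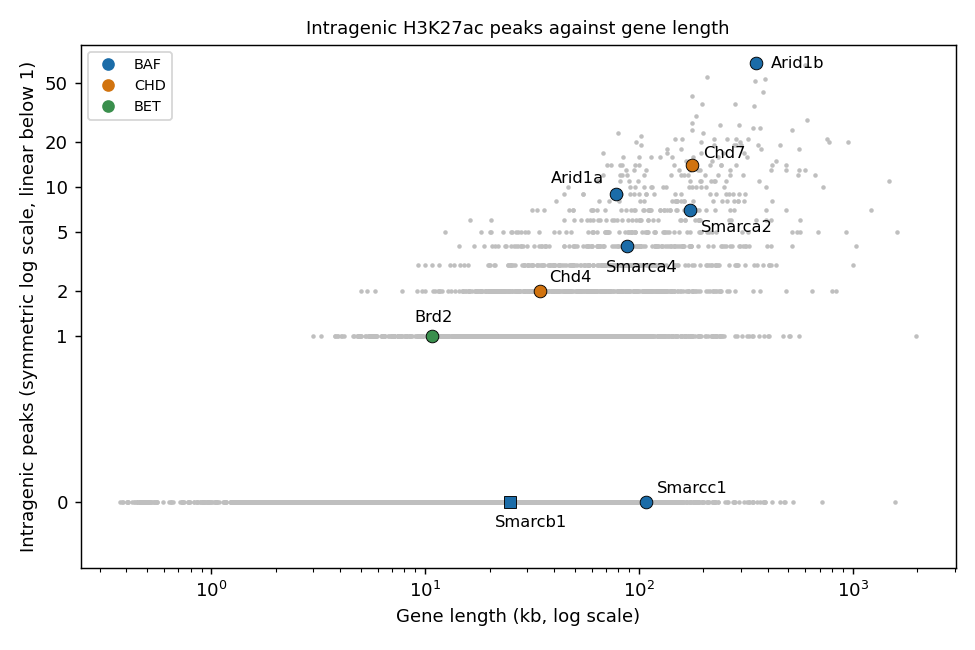
Number of intragenic peaks (y axis, symmetric log scale) against gene length in kb (log x axis). Grey points are the protein-coding genes with an end peak, coloured circles the members by class, and the square Smarcb1, which has no end peak. Arid1b lies at the top with 68 peaks, and Smarcc1 lies at 0.

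Flanking peaks within 50 kb were found at all 9 genes, against 57.6% of protein-coding genes. With a q-value of at most 0.05 Arid1b had none, and within 25 kb Smarca2 and Arid1b had none. With −log10 q of at least 5, Smarcc1, Arid1a and Arid1b had none. Of the 38 flanking peaks, 20 (52.6%) overlapped the surroundings of an end of another protein-coding gene, as did 57.5% of the flanking peaks of all protein-coding genes. Arid1b had 1 flanking peak, with a signal value of 2.63, so nearly all of its peaks lay at or inside the gene. Chd7 had 5, none at another protein-coding gene, of which the strongest was chr4:8646320-8648702, with a signal value of 5.81, 43.4 kb from the low-coordinate end. Arid1a had 7, of which 5 lay at Pigv, a GPI-anchor mannosyltransferase gene, or Zdhhc18, with signal values of at most 3.85.

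Brd2 had 5 flanking peaks. The strongest, chr17:34101694-34104168, with a signal value of 6.85, lay 9.20 kb beyond its 3′ end and at no end of another gene, and a weaker one with a signal value of 3.76 was at H2-Oa, another MHC class II gene. Chd4 had 7, of which 4 were at ends of Nop2, Iffo1 or the glycolytic gene Gapdh, the last with a signal value of 5.75. Smarca2 had 1, with a signal value of 4.59, 25.8 kb beyond its 3′ end. The single flanking peak of Smarca4 (4.23) was at Yipf2 and Timm29, and the stronger of the 2 of Smarcc1 (3.79) was at the RNA helicase gene Dhx30.

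The other genes of these complexes were taken as lists of 59 genes, of which 47 had an end peak (79.7%, against 36.2% of all protein-coding genes), with a median signal value of 4.93 against 4.71 for all genes with one. Among 22 other BAF genes 17 (77.3%) had an end peak, set against the same 36.2%. The strongest were Smarcc2, the paralogue of Smarcc1, with 13.7 (percentile 99.1) and a width of 4220 bp, and Bicra, a subunit of the non-canonical complex, with 9.46. Smarcc2 thus stood far above Smarcc1 (3.52) by the rule on either end, which does not tell a 5′ end peak from a 3′ one. Those without an end peak were Smarcd3, Dpf1, Dpf3, Actl6b and Ss18. Dpf1, Dpf3 and Actl6b encode subunits known from neural and muscle forms of the complex. Ss18 had 6 intragenic peaks, the strongest with a signal value of 8.39, so its body was acetylated.

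Of the 7 other CHD genes, 6 had an end peak, where 36.2% of all protein-coding genes did, the strongest at Chd1 (9.61) and Chd2 (8.02), both above Chd4 and Chd7. Chd5, known mainly from brain and testis, had none. All 11 NuRD partners had an end peak, against the same 36.2%, with a median of 4.83 against 4.71 for all genes with one, the strongest at the subunit genes Mta2 (8.23) and Mta3 (6.76). In the BET family, Brd3 and the testis gene Brdt had no end peak, though they held 4 and 2 intragenic peaks.

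Of 17 ISWI and INO80-type remodellers and their relatives, 13 had an end peak (76.5%, against 36.2% of all protein-coding genes), with a median of 6.76 against 4.71. Bptf, the large subunit of NURF, and Atrx shared the highest value, 8.88. Smarca1, Baz1a, Ruvbl2 and Hells had no end peak. Of these, Baz1a held 3 intragenic peaks (strongest 5.23) and Ruvbl2 held 1 (6.60), while Smarca1 and Hells held none. Baz2b had 17 intragenic peaks, the most of the 59 genes, in 311 kb, with the strongest at a signal value of 14.4. No gene of these lists had as many as Arid1b.

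**Figure D5:**
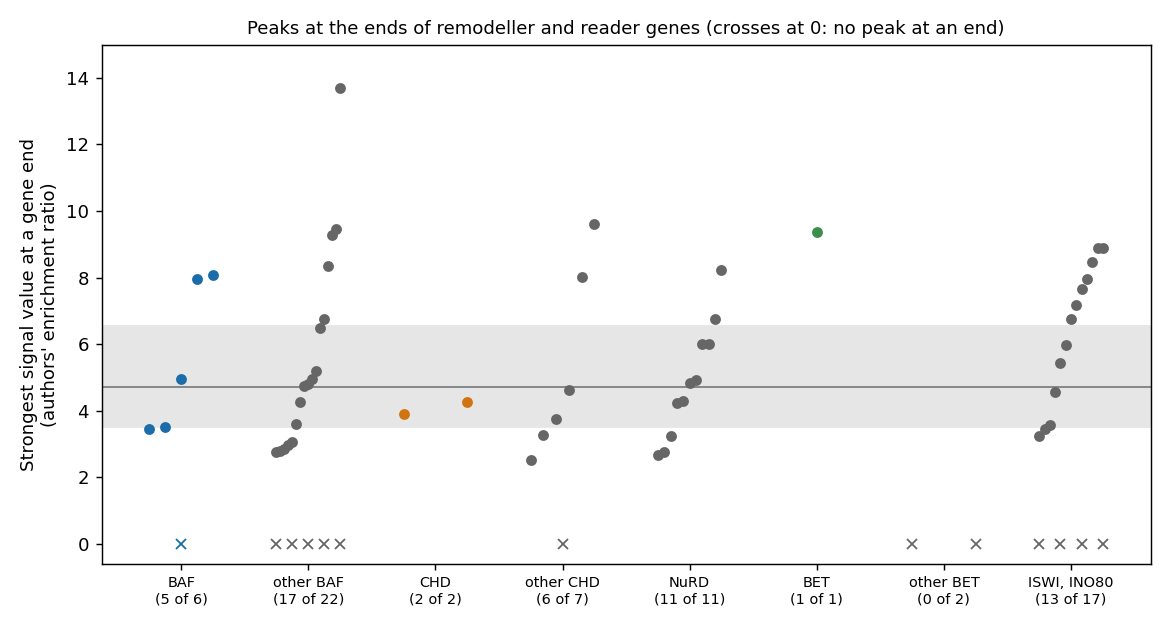
Strongest signal value at a gene end (y axis) for the members (coloured) and the other genes of their complexes (grey), with the number of genes with an end peak below each list. Crosses at 0 are genes without one, points are spread sideways only for legibility, and the band and line are the interquartile range and median of all genes with an end peak. Smarcc2 stands highest, at 13.7.

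As a check of the label, 5 of 7 stem and progenitor markers had an end peak, against 36.2% of all protein-coding genes. They were Kit (5.66), Flt3 (6.58), Runx1 (10.1), Meis1 (12.2) and Ptprc (10.8), the gene of CD45. Ly6a, which encodes the sorting antigen Sca1, and Cd34 had none. The listed markers are not all particular to stem cells, so the count does not settle the label. All 5 B-lineage markers had one, with signal values from 4.40 to 13.6, and none of the 4 myeloid, 3 erythroid and 3 T-lineage markers did. The B-lineage markers held 91 intragenic peaks (median 8 per gene) and the stem and progenitor markers 44 (median 3). The myeloid, erythroid and T-lineage markers held none. In 1 pooled list, more cells with a mark and more of the mark in each cell cannot be told apart, and the part of any cell type in the peaks of the 9 genes was not tested.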

How the data were processed

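H3K27ac ChIPmentation peaks of 4 libraries over 1 input library were taken from 1 peak list as deposited, without a header. Per the submitters' processing notes, BWA, MACS2 and the build mm10 were used. The name of the deposited list calls it an optimal overlap set over input. Versions, filters and the rule behind that overlap are not given in the sources used here. The signal value was read, by the usual order of the columns, as the authors' enrichment ratio. The other columns used are the authors' −log10 p-value and −log10 q-value of each peak. Depth is unknown, so no interval was computed.

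Gene positions and promoter windows came from NCBI RefSeq tables of GRCm38.p6, the assembly that mm10 names. All 9 genes and all 59 genes of the lists matched the gene table, and 1 further gene of the lists is not reported here. Of the 9, 8 matched the promoter table, which gives strand and starts. The gene table holds no exons, so peaks were not placed in exons, introns or UTRs. Coordinates are 1-based. Strand for Chd7 was not used. Overlaps and percentiles (ties counted by the midpoint) were computed with pandas 2.3.3 and numpy 2.4.6, and the assignment of peaks was tested on simulated peaks. No test between samples was made.

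The 9 genes and the lists were chosen with earlier results of these data known. Named genes were the 9, the genes of each list without an end peak and the 2 with the strongest, and genes whose ends hold a counted peak. Foxp1, Zmiz1 and Baz2b were named after seeing their values, and the stem and progenitor markers only in the check of the label. Alternatives were stricter peaks (−log10 q of at least 5, a q-value of at most 0.05, a signal value of at least 4), joined peaks, other windows and distances, and summit rules.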

Additional observations from a re-analysis of the deposited data

How the results depend on the processing

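Of 92 recomputed values, 57 stayed equal in rank or within 1.5 times the reported value and 35 moved beyond it. The use of any annotated start, the rank of Arid1b, joining within 2.5 and 5 kb, and the comparison of intragenic with end peaks were chosen after seeing the data. With −log10 q of at least 5, and likewise with a signal value of at least 4, 5 of the 9 genes had an end peak, against 24.0% and 23.2% of all genes. The BAF median was then 7.96 with a width of 3282 bp (CHD 2393 bp), intragenic peaks numbered 16 for BAF, 3 for CHD and 0 for Brd2, and flanking peaks 6, 3 and 2. Arid1b then had rank 3 and rank 2 by intragenic peaks. With peaks within 1 kb joined, the BAF width was 3315 bp (CHD 2531.5 bp), intragenic peaks numbered 46, 7 and 0, flanking peaks of CHD 6, and Arid1b had rank 3. Its rank was 2 with 2.5 kb, 9 with 5 kb and 2 by covered bases. Within 25 kb, flanking peaks numbered 12 for BAF and 3 for Brd2, and within 100 kb 34, 21 and 15. With any annotated start, the BAF median was 7.96. The BAF median moved where Smarcc1 and Arid1a dropped out, or where Arid1a took its inner start. All these shifts are recounts of the same peak list under another rule, and no cause beyond the rule was tested. A summit within 1 kb of an end gave no value for Brd2, and 7 of the 9 genes then had an end peak, against 33.3% of all genes.

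Leaving out a library was not possible without values per library. No paired analysis was possible because all 4 libraries share 1 pooled column of values. The unknown depth limits what the lack of a peak can show.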
